A study of Homo sapiens with 6 samples.

Results

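Genes switched on by interferon include many antiviral effectors beside the IFIT genes, and 40 of them are described here in T24 cells after knockdown of TRIM28. They were chosen by gene symbol from 78932 annotated genes, for their known part in the interferon response, with earlier results of these data known. The symbol of each occurs in the table. T24 is a line from a human bladder carcinoma. The cultures were transfected either with a control siRNA (siNC, 3 biological replicates) or with siRNA against TRIM28 (siTRIM28, 3 biological replicates), and poly(A) RNA was sequenced from each. Every culture thus carried a synthetic duplex, with a sequence that differed between the groups. Effects of that sequence and of the knockdown cannot be told apart in this design. The siRNA used against TRIM28 in this experiment, among those of the study, and the time from transfection to harvest are not given in the sources used here.

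Type I and type III interferons bind receptors at the cell surface, where the kinases JAK1 and TYK2 become active. The transcription factor complex ISGF3, which includes STAT2 and IRF9, then binds a short element in the promoters of target genes, the interferon-stimulated response element (ISRE). The proteins made from these genes block viruses at entry, at translation, at replication and at release, and some of them also damp the response. TRIM28, also called KAP1, is a corepressor recruited by KRAB zinc finger proteins, known for keeping endogenous retroviruses silent.

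The libraries held between 11712623 and 14018052 counts. TRIM28 itself stood at 102, 101 and 108 CPM (read counts relative to the library total, scaled by TMM) in siNC and at 9.28, 8.11 and 9.21 CPM in siTRIM28, a log2 fold change of -3.54 (SE 0.07, edgeR adjusted p = 1.03e-10). In a chi-square comparison of counts, siNC replicate 3 and siTRIM28 replicate 1 stood apart from the other cultures of their groups. Their comparisons gave 4.44 to 6.96 per degree of freedom, against 1.08 and 1.24 for the closer pairs. Counting error alone gives about 1, so the closer pairs differed by little more than that. The tests below take all cultures of a group as independent. The keratins KRT8 and KRT18 lay at 81.7 to 120 CPM in every library, whereas the epithelial markers KRT19, EPCAM and CDH1 reached no more than 0.506 CPM and the urothelial markers UPK1B and KRT20 were at 0. PPARG, on the urothelial list too, lay at 6.43 to 8.28 CPM and made up most of that list's sum. The leukocyte markers PTPRC and CD3E reached no more than 0.314 CPM, while CD68, a lysosomal protein, lay at 338 to 361 CPM. Summed over 6 markers each, the epithelial list was at 189 to 197 CPM in siNC and 207 to 215 CPM in siTRIM28, the urothelial list at 7.63 to 8.70 and 6.64 to 8.87 CPM, and the leukocyte list at 345 to 350 and 338 to 361 CPM. The summed 3 endothelial markers were at 0.433 to 0.504 CPM in siNC and at 0.714 to 1.01 CPM in siTRIM28, and their part in the results was not tested.

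Of the 40 effector genes, 28 had at least 10 counts in at least 3 libraries and were tested. At an adjusted p under 0.05 (edgeR quasi-likelihood test, Benjamini-Hochberg adjustment over 18474 genes), 15 of the 28 were higher in siTRIM28 and 1 was lower, which is 53.6% and 3.57%. Over all genes tested, 21.3% were higher and 20.5% were lower. With a log2 fold change of at least 0.58 as a further threshold, 9 effector genes (32.1%) were higher, against 9.51% of all genes. OASL, counted in the 15 and in the 9, reached the count minimum only through the siTRIM28 libraries. With at least 10 counts required in every library, 14 of 26 effector genes were higher and 1 was lower. Of all 16542 genes then tested, 3659 were higher and 3671 were lower. The median log2 fold change was 0.43 for the 28 effector genes and 0.02 for all genes. The effector genes were chosen with earlier results of these data known. These shares and medians are therefore a description, and the list as a set was not tested. The other 12 effector genes, MX1, MX2, OAS2, IFI44L, IFI27, XAF1, CMPK2, RSAD2, EPSTI1, BST2, IFITM2 and RTP4, never exceeded 12 counts in a library. These are bulk cultures, in which more cells with a transcript and more transcript per cell cannot be told apart.

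The response element is the sequence feature that these genes are known to share, so the promoters were read for it. A promoter here is the stretch from 250 bases before to 50 bases after a RefSeq transcript start (GRCh38.p14), and 35 of the 40 genes had an entry. The genes without an entry were OASL, USP18, OAS2, MX2 and IFITM2. The ISRE core was searched as GAAANNGAAA on both strands, so that a match on the opposite strand reads as its reverse complement below. It occurred in at least 1 promoter of 23 of the 35 genes (65.7%, Wilson 95% interval 49.2% to 79.2%), against 4.30% of 27270 other genes and 3.57% of 35116 promoters. A longer form, GAAANNGAAACT, occurred in 45.7% of the effector genes and in 0.264% of the other genes. A match is a description of the letters only, and no binding was measured.

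The stretches around the matches are shown for genes that rose most and for some of their neighbours or relatives, which rose less or had too few counts to test. Each is written 5′ to 3′ along the strand of its gene, with the match in capitals. DDX60 and DDX60L, on the minus strand of chromosome 4, had 2 matches each before their starts. The stretches of DDX60 lie at chr4:168318821-168318850 and chr4:168318786-168318815, and those of DDX60L at chr4:168480553-168480582 and chr4:168480523-168480552.
DDX60, 88 bases before the start: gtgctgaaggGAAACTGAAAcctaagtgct
DDX60, 53 bases before the start: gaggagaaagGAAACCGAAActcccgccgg
DDX60L, 80 bases before the start: gaaaactgcgGAAATCGAAAaggcctcgcg
DDX60L, 50 bases before the start: gtggagaaaaGAAACCGAAActaactccct

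IFI44 and IFI44L lie side by side on the plus strand of chromosome 1. The stretch around the match of IFI44 is chr1:78649761-78649790. The matches of IFI44L lie in the stretches chr1:78620274-78620303 and chr1:78620365-78620394, each of 30 bases and identical to each other.
IFI44, 60 bases before the second start: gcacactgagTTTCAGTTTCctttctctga
IFI44L, 164 and again 73 bases before the start: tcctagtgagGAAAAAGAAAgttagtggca

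SAMD9 has a match within chr7:93118096-93118125 on the minus strand, and its neighbour SAMD9L has none in this window. HERC5 has overlapping matches within chr4:88456984-88457019 and a further match within chr4:88457035-88457064, on the plus strand, and its neighbour HERC6 has none. ISG15 has overlapping matches within chr1:1013374-1013409 on the plus strand.
SAMD9, 136 bases before the start: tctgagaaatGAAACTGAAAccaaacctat
HERC5, 125 bases before the start: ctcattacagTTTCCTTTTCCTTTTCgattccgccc
HERC5, 74 bases before the start: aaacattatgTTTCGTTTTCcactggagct
ISG15, 113 bases before the start: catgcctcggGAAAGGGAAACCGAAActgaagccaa

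Genes that were not called or could not be tested carried the element too. Stretches of RTP4 (chr3:187368357-187368384, plus strand), BST2 (chr19:17405735-17405770, minus strand), EPSTI1 (chr13:42992272-42992301, minus strand) and IFITM3 (chr11:320876-320922, minus strand) are shown because the matches are as complete as those above.
RTP4, 18 bases before the start: accgaacaccGAAACTGAAActgtttgt
BST2, 130 bases before the start: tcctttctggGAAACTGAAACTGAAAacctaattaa
EPSTI1, 50 bases before the start: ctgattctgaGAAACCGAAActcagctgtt
IFITM3, 52 bases before the start: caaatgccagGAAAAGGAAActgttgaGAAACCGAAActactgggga

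Of the 13 genes that were higher and had a promoter entry, 12 had a match, SAMD9L being the exception. Of the 12 that were tested and not called, 4 had one, namely PARP9, DTX3L, IFITM1 and IFITM3. ADAR, the gene that was lower, had none. The 16 tested genes with a match had a median log2 fold change of 0.66, from -0.22 to 2.37, and the 10 without had a median of 0.03, from -0.36 to 0.48. Among the 9 genes with too few counts to test and a promoter entry, 7 had a match.

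The OAS enzymes are sensors of double-stranded RNA that make the activator of the nuclease RNase L. OASL is their catalytically inactive relative, which binds the sensor RIG-I. OASL (chr12:121017763-121039246) had 6, 3 and 6 counts in siNC and 50, 37 and 44 counts in siTRIM28, or 0.432, 0.217 and 0.470 CPM against 3.57, 3.12 and 3.72 CPM. Every siTRIM28 culture lay far above every siNC culture, and the gene reached the count minimum only through the siTRIM28 libraries. Among the effector genes tested it had the highest fold change, with a log2 fold change of 3.20 (SE 0.28, edgeR adjusted p = 3.86e-06, 9.17-fold).

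The catalytic OAS genes sit in a row on chromosome 12, and those tested, OAS1 and OAS3, changed by less than OASL. OAS3 stood at 19.0, 16.3 and 18.6 CPM in siNC and at 22.6, 22.0 and 22.2 CPM in siTRIM28, without overlap (log2 fold change 0.31, SE 0.07, edgeR adjusted p = 0.00531). OAS1 stood at 1.73, 1.23 and 1.18 CPM against 1.93, 1.69 and 2.20 CPM, with overlap between the groups (0.48, SE 0.24, edgeR adjusted p = 0.134). OAS2, which lies 5143 bases from OAS3, had 0, 0 and 2 counts in siNC and 4, 3 and 3 in siTRIM28, too few to test.

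DDX60 is a helicase-like protein linked to RIG-I signalling and to the shutdown of viral translation, and DDX60L is its neighbour and relative. DDX60 (chr4:168216291-168318807) stood at 8.57, 7.80 and 8.08 CPM in siNC and at 41.9, 41.1 and 43.4 CPM in siTRIM28. The replicates of each group lay close together and the groups were far apart, at a log2 fold change of 2.37 (SE 0.07, edgeR adjusted p = 1.04e-09, 5.17-fold). DDX60L (chr4:168356735-168537786) stood at 13.0, 12.5 and 13.4 CPM against 17.2, 19.3 and 18.9 CPM. It also rose without overlap, by less (log2 fold change 0.51, SE 0.08, edgeR adjusted p = 0.00024). DDX60L shares 40735 bases of its span with PALLD on the other strand. PALLD averaged 166 CPM in siNC and 180 CPM in siTRIM28, far above DDX60L, with a log2 fold change of 0.12. The part of PALLD reads in the DDX60L count was not tested.

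IFI44 is an interferon-induced protein related to GTPases. IFI44 (chr1:78649796-78664078) stood at 22.6, 21.0 and 20.9 CPM in siNC and at 77.6, 83.9 and 76.1 CPM in siTRIM28, a log2 fold change of 1.88 (SE 0.07, edgeR adjusted p = 5.16e-09, 3.68-fold). Its neighbour and relative IFI44L, which starts upstream and ends 7457 bases before IFI44, had 3, 6 and 3 counts in siNC and 2, 5 and 3 in siTRIM28. IFI44L was thus near the floor in both groups. Its promoter window carries 2 matches and that of IFI44 carries 1, of which only the match of IFI44 has the longer form.

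SAMD9 restricts poxviruses and is tied to myeloid disease, and SAMD9L is its neighbour and relative. SAMD9 (chr7:93099513-93117979) stood at 17.8, 18.7 and 16.6 CPM in siNC and at 51.1, 54.7 and 52.6 CPM in siTRIM28. All siTRIM28 cultures lay above all siNC cultures, with a log2 fold change of 1.57 (SE 0.07, edgeR adjusted p = 1.71e-08, 2.98-fold). SAMD9L (chr7:93130056-93148345) stood at 6.41, 7.51 and 6.27 CPM against 9.50, 9.12 and 8.95 CPM, a smaller rise without overlap (0.45, SE 0.11, edgeR adjusted p = 0.00808).

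ISG15 is a ubiquitin-like protein that is attached to other proteins by the E2 enzyme UBE2L6 and the ligase HERC5, and removed by USP18, which also inhibits the interferon receptor. ISG15 (chr1:1001138-1014540) stood at 5.62, 6.79 and 5.25 CPM in siNC and at 18.5, 13.9 and 12.9 CPM in siTRIM28. The highest value came from siTRIM28 replicate 1, and the groups did not overlap (log2 fold change 1.36, SE 0.15, edgeR adjusted p = 2.57e-05). Without that replicate the log2 fold change was 1.18. HERC5 (chr4:88457119-88505952) stood at 9.79, 8.88 and 8.78 CPM against 18.1, 17.4 and 18.5 CPM, a rise of 1.97-fold (log2 0.98, SE 0.08, edgeR adjusted p = 2.08e-06).

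The remaining genes of this system moved less. USP18 stood at 5.69, 6.14 and 5.33 CPM in siNC and at 8.36, 7.26 and 7.18 CPM in siTRIM28 (log2 fold change 0.41, SE 0.13, edgeR adjusted p = 0.0217). The groups of USP18 did not overlap, but 5 of 15 alternative fits did not call it. UBE2L6 stood at 13.8, 12.7 and 14.5 CPM against 14.1, 12.8 and 14.0 CPM, with overlapping groups (0.00, SE 0.08, edgeR adjusted p = 0.992). HERC6, the neighbour of HERC5, stood at 2.95, 1.44 and 1.72 CPM against 2.71, 2.87 and 2.79 CPM. Its groups overlapped through siNC replicate 1 (0.44, SE 0.25, edgeR adjusted p = 0.188), and without that replicate it was called at 0.81 (edgeR adjusted p = 0.0209, and 0.0209 to 0.509 over all alternatives). An opposite-strand gene without a symbol shares 31615 bases with HERC6 and 48834 bases with HERC5. That gene averaged 2.19 CPM in siNC and 2.37 CPM in siTRIM28 (log2 fold change 0.13), near the level of HERC6. Its part in both counts was not tested.

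**Figure D1:**
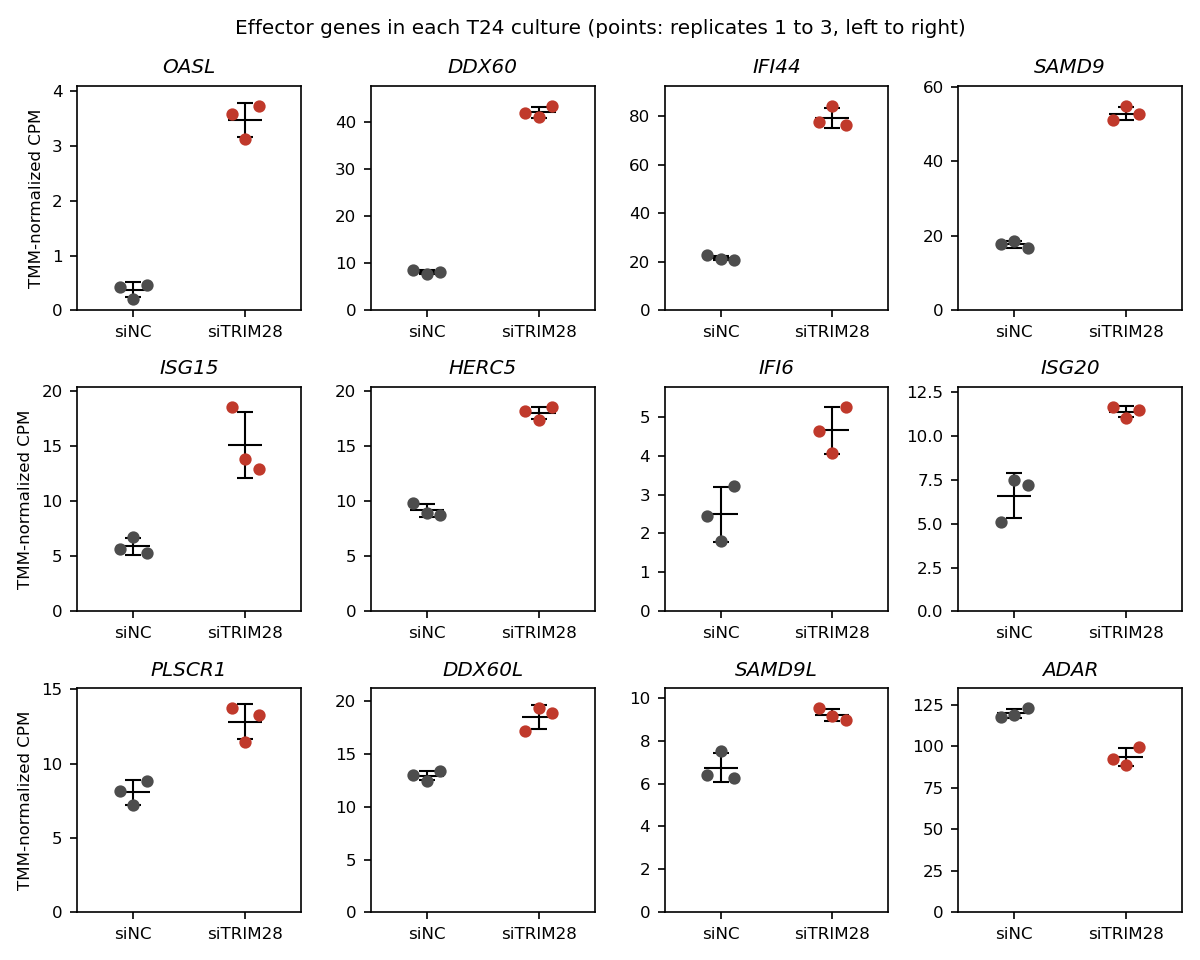
TMM-normalized CPM (linear axes from 0) of 12 effector genes in each culture, siNC in grey and siTRIM28 in red, with the mean and SD of 3 replicates. OASL, DDX60, IFI44 and SAMD9 show the widest gaps between the groups, DDX60L and SAMD9L narrower gaps in the same direction, and ADAR lies lower in every siTRIM28 culture.

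IFI6, ISG20 and PLSCR1 also passed both thresholds. IFI6, a protein of the endoplasmic reticulum and mitochondria that limits flavivirus replication, stood at 2.45, 1.81 and 3.21 CPM in siNC and at 4.64, 4.05 and 5.24 CPM in siTRIM28 (log2 fold change 0.91, SE 0.21, edgeR adjusted p = 0.00455). ISG20, an exonuclease that degrades viral RNA, stood at 5.11, 7.51 and 7.21 CPM against 11.6, 11.1 and 11.5 CPM (0.79, SE 0.13, edgeR adjusted p = 0.000613). PLSCR1, a phospholipid scramblase that hinders virus entry, stood at 8.14, 7.22 and 8.86 CPM against 13.7, 11.5 and 13.3 CPM (0.67, SE 0.11, edgeR adjusted p = 0.000429). In all of them the lowest siTRIM28 culture lay above the highest siNC culture.

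Among the RNA-binding effectors, EIF2AK2 and ADAR were at high counts and moved in opposite directions by small amounts. EIF2AK2, or PKR, is the kinase that halts translation when it binds double-stranded RNA. It stood at 49.6, 53.4 and 51.0 CPM in siNC and at 57.6, 57.6 and 57.7 CPM in siTRIM28 (log2 fold change 0.17, SE 0.06, edgeR adjusted p = 0.0308), and 7 of 15 alternative fits did not call it. ADAR, which edits adenosine in double-stranded RNA and so limits its sensing, stood at 117, 119 and 123 CPM against 92.1, 88.7 and 99.6 CPM. Every siTRIM28 culture lay below every siNC culture, and ADAR (chr1:154581695-154628004) was the effector gene that was lower (log2 fold change -0.36, SE 0.05, edgeR adjusted p = 0.000211, 1.28-fold).

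PARP14, PARP9 and DTX3L lie within one region of chromosome 3 and encode ADP-ribosyltransferases and, in DTX3L, the ubiquitin ligase that partners PARP9. PARP14 stood at 39.5, 38.8 and 40.8 CPM in siNC and at 47.1, 47.3 and 49.5 CPM in siTRIM28 (log2 fold change 0.27, SE 0.06, edgeR adjusted p = 0.00271). PARP9 stood at 25.6, 26.1 and 24.1 CPM against 23.7, 26.2 and 29.1 CPM, with overlap (0.05, edgeR adjusted p = 0.626). DTX3L stood at 19.3, 20.7 and 20.7 CPM against 16.5, 19.2 and 19.8 CPM, also with overlap (-0.13, edgeR adjusted p = 0.206). PARP9 and DTX3L overlap by 240 bases on opposite strands, and their ISRE matches are the same bases, chr3:122564332-122564341.

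The IFITM proteins block fusion of enveloped viruses with the cell. IFITM3 stood at 32.5, 31.6 and 30.6 CPM in siNC and at 32.4, 24.2 and 24.1 CPM in siTRIM28. The groups overlapped only through siTRIM28 replicate 1, and IFITM3 was not called (log2 fold change -0.22, SE 0.10, edgeR adjusted p = 0.105), whereas without that replicate it was lower at -0.39 (edgeR adjusted p = 6.05e-05, and 6.05e-05 to 0.315 over all alternatives). A gene without a symbol on the opposite strand shares 1222 bases with IFITM3 and had a similar level, 31.3 and 26.4 CPM, and its part in the count was not tested. IFITM1 stood at 0.648, 0.867 and 1.25 CPM against 1.00, 1.44 and 1.94 CPM, with overlap (0.65, SE 0.34, edgeR adjusted p = 0.147), and it was called without siTRIM28 replicate 1 at 0.88 (edgeR adjusted p = 0.0356, and 0.0356 to 0.441 over all alternatives). IFITM1 likewise shares 1158 bases with an opposite-strand gene without a symbol. That gene averaged 1.29 CPM in siNC and 1.99 CPM in siTRIM28 (log2 fold change 0.61), above the means of IFITM1 itself. Its part in the IFITM1 count was not tested. IFITM2 had 4, 7 and 10 counts in siNC and 3, 5 and 7 in siTRIM28.

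The nuclear proteins and cofactors were not called. IFI16, a DNA sensor, stood at 59.2, 63.1 and 60.4 CPM in siNC and at 59.1, 57.3 and 60.3 CPM in siTRIM28 (log2 fold change -0.05, SE 0.05, edgeR adjusted p = 0.518). SP100, a component of PML nuclear bodies, stood at 52.6, 54.9 and 54.3 CPM against 59.1, 56.3 and 55.7 CPM. Its groups did not overlap, yet it was not called (0.08, SE 0.06, edgeR adjusted p = 0.260). SP110, a nuclear body protein of the same family, stood at 15.6, 17.4 and 15.8 CPM against 15.0, 17.6 and 17.0 CPM (0.02, edgeR adjusted p = 0.890). HELZ2, a helicase that coactivates nuclear receptors, and IFI35 had log2 fold changes of 0.05 and -0.14 (edgeR adjusted p = 0.612 and 0.562), both with overlapping groups. In all, the siTRIM28 cultures lay wholly above the siNC cultures in 16 of the 28 genes, against 26.3% of all genes tested, and wholly below in 1, against 25.7%.

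**Figure D2:**
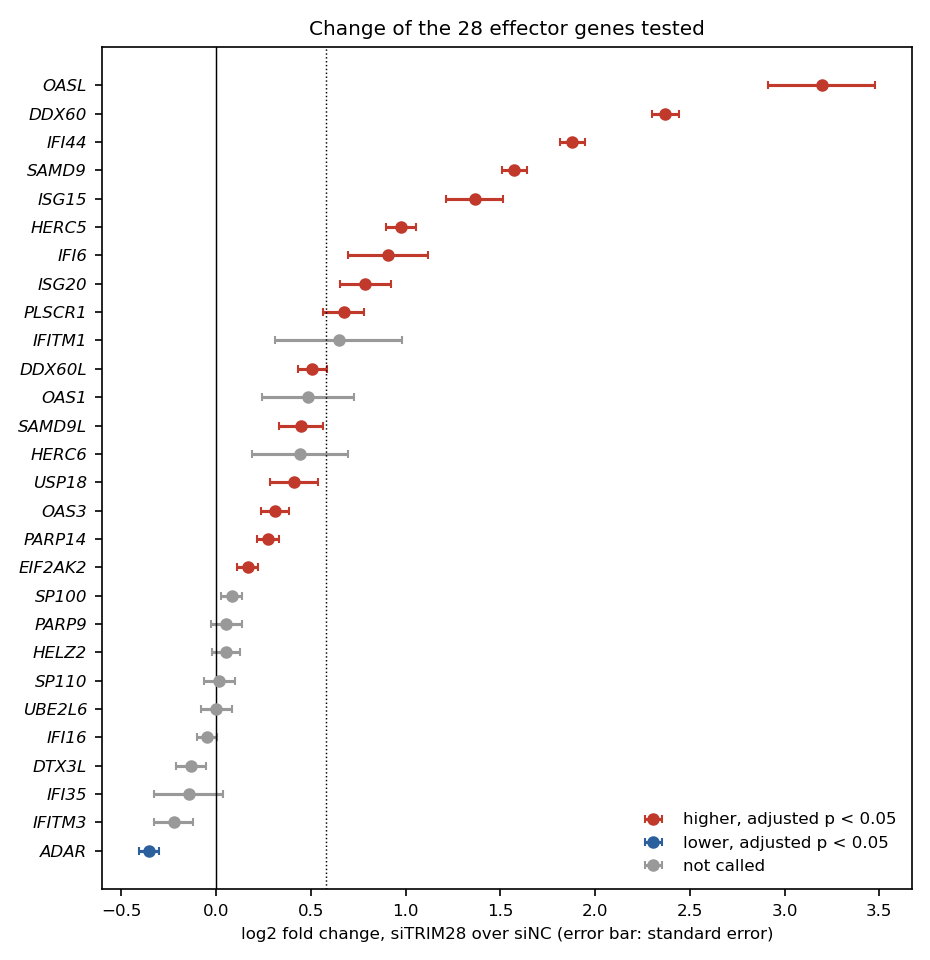
Log2 fold change of the 28 effector genes tested, siTRIM28 over siNC, with its standard error (3 cultures per group) and the threshold of 0.58 as a dotted line. The genes spread from 3.20 for OASL to -0.36 for ADAR, 9 called genes lie beyond the dotted line, and 12 genes are not called, among them IFITM1 at 0.65.

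The 12 genes below the count minimum include classic interferon-induced genes. MX1, a dynamin-like GTPase active against influenza virus, had 12, 10 and 8 counts in siNC and 9, 3 and 9 in siTRIM28. RSAD2, or viperin, had 0, 2 and 1 counts against 1, 3 and 1. IFI27 had 2 counts in each siNC library and 5, 1 and 0 in siTRIM28. For these genes no rise could be seen at this depth.

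BST2, or tetherin, which holds budding virus at the cell surface, had 3, 6 and 4 counts against 9, 3 and 2. MX2 had 0, 0 and 2 counts against 3, 2 and 0. CMPK2, a mitochondrial nucleotide kinase that overlaps RSAD2 by 1079 bases on the opposite strand, had 1, 2 and 1 counts against 2, 1 and 4. XAF1 had 2, 2 and 0 counts against 2, 3 and 4, and EPSTI1 had 0, 0 and 1 against 2, 1 and 6. RTP4 had 0 counts in every siNC library and 1, 3 and 4 in siTRIM28, at or near the 3 counts that a count of 0 allows, which is 0.214 to 0.253 CPM per library. With no count minimum RTP4 was called higher (edgeR adjusted p = 0.0252), whereas the other 11 of these genes had adjusted p from 0.0836 to 0.978. The groups did not overlap in OAS2, EPSTI1 and RTP4, at these very low counts. Summed over the 12 genes, the libraries held 27 to 37 counts in siNC and 33 to 43 counts in siTRIM28. As raw counts these sums overlapped between the groups. The libraries differ in depth, so that overlap does not compare levels.

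Neighbours and relatives were next compared inside each culture, as the log2 ratio of 1 gene to the other. Of 15 pairs listed, 8 had both genes tested, and in 5 of these the groups did not overlap. Among single genes tested, the groups were apart in 26.3% upward and in 25.7% downward. No such share was computed for ratios of other gene pairs, so the count of pairs is a description only. With 3 cultures against 3, an exact two-sided permutation test cannot give a p under 0.1, the value reached by these 5 pairs (0.16 after Benjamini-Hochberg adjustment over 8 pairs), so none could pass 0.05. The log2 ratio of DDX60 to DDX60L was -0.60, -0.67 and -0.72 in siNC and 1.28, 1.08 and 1.19 in siTRIM28, a shift of 1.85. DDX60 thus passed from fewer reads than its neighbour to more. The log2 ratio of SAMD9 to SAMD9L was 1.45, 1.30 and 1.38 in siNC and 2.41, 2.56 and 2.53 in siTRIM28, a shift of 1.12.

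The other pairs shifted less. The log2 ratio of HERC5 to HERC6 was 1.68, 2.50 and 2.25 against 2.67, 2.54 and 2.66, and its siNC cultures were widely spread. The shift of 0.48 was 0.25 without siNC replicate 1. The ratio of PARP9 to DTX3L, which share a start region, rose by 0.19, and that of PARP9 to PARP14 fell by 0.22. The pairs OAS1 and OAS3 (shift 0.15, exact permutation p = 0.5), IFITM1 and IFITM3 (0.82, exact permutation p = 0.2) and SP100 and SP110 (0.06, exact permutation p = 0.8) had overlapping groups. Several genes of the pairs, among them DDX60L, HERC5, HERC6, IFITM1 and IFITM3, overlap a counted gene on the other strand. The part of such reads in the ratios was not tested.

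Levels of different genes were compared per length, as CPM per kilobase of the gene length in the table (RPKM). The length of the transcripts made in these cells was not measured, and the order of genes depends on the annotated length. In siNC, IFI16 (11.5 ± 0.373 RPKM, SD, n = 3), IFITM3 (11.1 ± 0.333), IFI44 (10.6 ± 0.463) and ADAR (9.30 ± 0.216) were the highest effector genes, in that order. The cultures of IFI16 and IFITM3 overlapped, as did those of IFITM3 and IFI44, while ADAR lay below all of them. In siTRIM28, IFI44 led at 38.9 ± 2.04 RPKM, followed by ISG15 at 17.4 ± 3.44 RPKM and IFI16 at 11.1 ± 0.281 RPKM. OASL remained low per length despite its fold change, at 0.0583 ± 0.0214 RPKM in siNC and 0.542 ± 0.0481 RPKM in siTRIM28. DDX60 went from 0.470 ± 0.0224 to 2.43 RPKM. Summed over the 28 genes, the level was 95.3 to 96.6 RPKM in siNC and 145 to 152 RPKM in siTRIM28. Much of that difference lay in IFI44 (10.6 to 38.9 RPKM) and ISG15 (6.79 to 17.4 RPKM), and 12 of the 28 genes were not called.

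Further genes of the interferon pathway were read from a list of 30. Beside interferons, receptors, kinases, transcription factors and inhibitors, it holds 4 IFIT genes, which are effectors themselves. Of 8 interferon genes, 7 had 0 counts in all 6 libraries and IFNE had 5 counts in total, so 7 interferon transcripts were not detectable at this depth. The receptor genes tested were not called except IFNGR1 (log2 fold change 0.27, edgeR adjusted p = 0.00824), with IFNAR1 at -0.16 (edgeR adjusted p = 0.0956). STAT2 was higher by 0.39 (edgeR adjusted p = 0.00461), while IRF9 had a log2 fold change of 0.00 (edgeR adjusted p = 0.995). Of the 19 pathway genes tested, 8 were higher and none was lower, against 21.3% and 20.5% of all genes. By class, 1 of 5 receptor genes tested was higher, 1 of 3 kinases, 3 of 6 factors, 0 of 1 inhibitors and 3 of 4 IFIT genes. The 3 genes beyond 0.58 were IFIT1, IFIT2 and IFIT3, at 3.39, 4.27 and 4.29. Among the effector genes tested, OASL came nearest to these values.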

How the data were processed

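RNA-seq of 6 T24 cultures was analysed, and the groups come from the labels. The authors deposited raw counts per gene (GRCh38, Ensembl identifiers), and the submitters' processing notes name fastp 0.23.1, STAR 2.7.6a and featureCounts. Whether counting used strand or removed duplicates is not given in the sources used here. A second table, RPKM of genes the authors listed as differential, was not used. The 18474 genes that reached 10 counts in 3 or more libraries were tested with edgeR 4.0.16 in R 4.3.3 (TMM, quasi-likelihood test, Benjamini-Hochberg adjustment, threshold 0.05). Standard errors were obtained by dividing each fitted change by the square root of its F statistic. CPM use TMM-scaled library totals, and log2 ratios of pairs use a prior count of 2. Intervals cover counting error only, and p-values rest on the spread between cultures. The fits were tested on simulated data. The effector genes, pairs, pathway and marker lists were chosen with earlier results of these data known. All effector genes are named, with values in every library for those past both thresholds, in a pair or highest or lowest per length, and for others after their values were seen; other named genes are from the lists, TRIM28, or overlap a member. Some genes of the lists are counted but not reported here by name. Alternatives were other scalings, DESeq2 1.42.0, limma-voom 3.58.1, other filters, a replicate block, each library left out, close libraries summed, and other motif forms.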

Additional observations from a re-analysis of the deposited data

How the results depend on the processing

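Of the 16 effector genes called, 14 were called in every alternative fit that gave them a value. USP18 and EIF2AK2 were not, at log2 fold changes of 0.33 to 0.42 and 0.13 to 0.16 in the fits that missed them. OASL had no value in 4 of the 15 fits, where it fell under the count minimum. The count of 16 was 9 when a log2 change of 0.58 in size was also required, and that of pathway genes fell from 8 to 3 with it and to 5 with the closest libraries summed. With those libraries summed, 14 of 30 effector genes tested were called, and the edgeR adjusted p of DDX60 was 4.46e-06. Over all genes tested 7723 genes were called, and 3144 with that threshold. The median log2 fold change of the effector genes was 0.43, and it was 0.46 with upper-quartile scaling, 0.36 with at least 10 counts in every library, 0.35 with close libraries summed and 0.33 to 0.41 with 1 library left out. The share of effector genes with an ISRE match was 45.7% with the longer motif and 88.6% with 1 mismatch, which 37.7% of other genes also had. Values near 0 changed sign, none of them called. UBE2L6 was at -0.0045 with RLE scaling, -0.0056 with DESeq2, -0.0083 without a filter, -0.00056 with the replicate block, -0.033 with close libraries summed and -0.051 to 0.043 with 1 library left out. SP110 was at -0.022 with close libraries summed and at -0.038 to 0.087 with 1 library left out. With 1 library left out IFI35 ranged from -0.27 to 0.044, PARP9 from -0.030 to 0.13 and HELZ2 from -0.0017 to 0.11. The cause was not tested. IFITM3 was called without a filter at -0.23. Replicate numbers are shared by both groups, and whether they pair the cultures was not settled. Deviations of same-numbered cultures correlate at 0.0523, -0.0118 and 0.0374, and those of differently numbered cultures at -0.0655 to 0.0387. With 3 cultures per group these values cannot exclude a pairing. With the number as a block 17 effector genes were called, IFITM3 (-0.23) in addition. Among the pairs, 4 of 8 had separate groups with a prior count of 0.5 and 5 to 6 with 1 library left out. Leaving out 1 library moved the shift of OAS1 to OAS3 to 0.03 to 0.26, IFITM1 to IFITM3 to 0.54 to 1.18 and SP100 to SP110 to -0.03 to 0.12. DTX3L was at -0.05 without siTRIM28 replicate 1. Depth limits the 12 genes with at most 12 counts, of which RTP4 was called without a filter.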
